A study of Mus musculus with 5 samples.

Results

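The creatine kinases and the genes that make and import creatine were followed in whole mouse colon after activation of the IL-11 receptor. The family has 7 genes, Ckb, Ckm, Ckmt1, Ckmt2, Slc6a8, Gatm and Gamt, among the 32917 features tested, and all 7 passed the filter on dim probes. They were taken as a family by gene symbol, with all 11 of their probes. The family was selected on the comparison described here, in which Ckb was already known to be lower after the agonist. The members' values in this comparison are therefore a description and support nothing by themselves.

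Whole-colon RNA of 5 mice was hybridised to single-colour Agilent arrays, 1 mouse per array. All were wild-type animals of the strain labelled C57BL/B6. The 3 mice of the NT-3N group had received an intravenous injection of NT-3N, a modified human IL-11 made to activate the IL-11 receptor, and were 8 weeks old. Their colon was taken 3 hr after the injection. The 2 Control mice are labelled only as controls, and the study's figure legend calls these samples untreated. No vehicle injection is given for them, so effects of injection and of agonist cannot be told apart. The labels and the methods differ in the unit of the dose, so no dose is given. The colon was not separated into layers, and in such a bulk sample fewer cells of a type and less RNA per cell cannot be told apart.

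Creatine kinases move a phosphate group between ATP and creatine, so that phosphocreatine serves as an energy store and carries energy from mitochondria to sites of ATP use. The cytosolic enzymes are the brain type, Ckb, and the muscle type, Ckm, and the mitochondrial enzymes are the ubiquitous Ckmt1 and the sarcomeric Ckmt2. Gatm makes guanidinoacetate from arginine and glycine, Gamt methylates it to creatine, and creatine enters cells through the transporter Slc6a8. In the gut, Ckb is found in smooth muscle and in epithelium.

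The promoters of Ckb, Ckm and Gatm are shown because these members had the largest differences between the groups in either direction. Each sequence holds the 250 bases before the annotated start, read 5′ to 3′ on the strand of the gene, from RefSeq on GRCm38.p6. Capitals mark the TATA box, TATAAA, and the CCAAT box, CCAAT, found on either strand, so a box on the other strand appears as its reverse complement. The Ckb window is chr12:111672339-111672588 on the minus strand, the Ckm window is chr7:19410844-19411093 on the plus strand, and the Gatm window is chr2:122611278-122611527 on the minus strand.
Ckb: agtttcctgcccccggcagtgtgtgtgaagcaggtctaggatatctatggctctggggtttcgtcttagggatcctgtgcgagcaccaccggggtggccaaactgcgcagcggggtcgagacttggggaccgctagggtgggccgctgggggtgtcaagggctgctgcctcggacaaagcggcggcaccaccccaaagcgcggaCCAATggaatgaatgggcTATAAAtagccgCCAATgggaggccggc
Ckm: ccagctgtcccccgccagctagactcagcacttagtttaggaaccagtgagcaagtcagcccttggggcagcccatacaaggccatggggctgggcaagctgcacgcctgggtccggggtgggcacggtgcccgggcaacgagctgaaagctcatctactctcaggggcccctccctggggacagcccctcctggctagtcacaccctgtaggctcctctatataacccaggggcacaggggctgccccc
Gatm: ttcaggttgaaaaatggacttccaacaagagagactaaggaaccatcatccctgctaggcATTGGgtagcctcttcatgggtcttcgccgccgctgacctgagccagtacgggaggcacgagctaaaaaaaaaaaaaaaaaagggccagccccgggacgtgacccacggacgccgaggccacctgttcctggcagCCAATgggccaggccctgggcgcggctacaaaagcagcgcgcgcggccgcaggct

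The Ckb window held 1 TATA box whose first base lay 28 bases before the start, between CCAAT boxes at 46 and 16 bases. Of all 32851 windows of the same length, 12.4% held a TATA box and 33.8% a CCAAT box, counted on either strand. The Ckm window held neither of these exact matches. It did hold the similar letters TATATAA near the start, which the search for TATAAA does not count. Its single E box, CANNTG, lay 249 bases before the start. An E box was found in 66.2% of all windows. The Gatm window held CCAAT boxes at 190 and 55 bases and an E box at 71 bases. A window was found for 6 of the 7 members, and Slc6a8 was not among them. Ckmt1 had 2 windows, with a TATA box at 31 bases in 1 and a CCAAT box at 242 bases in the other. Both of these lay on the strand opposite to the gene, unlike the TATA box of Ckb. The Ckmt2 window held CCAAT boxes at 145 and 69 bases, the latter on the opposite strand, and 4 E boxes. These boxes were thus not particular to the members with the largest differences. The CArG box, the motif known for binding serum response factor in muscle genes, was in none of these windows and in 1.5% of all. The STAT-type motif TTCNNNGAA was in 7.0% of all windows and, among the members, in that of Ckmt2, at 182 bases. The GC box GGGCGG was in 32.7% of all windows and in those of Ckmt2 and Gamt. None of these matches overlapped another, and a match of letters describes the window and shows no binding.

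Every array had 70.6% to 72.9% of its 56605 probes well above background, with 0 saturated spots. The 11 member probes passed this limit on each of the 5 arrays. Values below are quantile-normalized log2 processed signal, the background-subtracted brightness of a probe, and a difference is the NT-3N mean minus the Control mean on that scale. Probes bind with different strength, so levels are compared between arrays and never between genes.

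Ckb was the member with the largest difference. Its brightest probe measured 12.41 and 12.58 in the Control mice and 11.62, 11.66 and 11.58 in the NT-3N mice. Both Control arrays lay above all 3 NT-3N arrays. The means were 12.50 ± 0.12 (SD, n = 2) and 11.62 ± 0.036 (SD, n = 3), a difference of -0.87 with a standard error of 0.089 and a 95% interval from -1.09 to -0.66. This is a 1.83-fold lower signal after NT-3N. The second Ckb probe gave the same order of groups, with 11.62 and 11.56 in Control and 10.73, 10.92 and 10.82 in NT-3N. Its difference was -0.77 with a standard error of 0.096, and it did not pass the test when every probe was tested (limma, adjusted p = 0.066).

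The separation was also present before any scaling between arrays. The unscaled processed signal of the brightest Ckb probe was 4831 and 6368 in Control and 2733, 3747 and 3296 in NT-3N. For the second probe these signals were 2777 and 3144 against 1481, 2267 and 1933. Neither probe's groups overlapped.

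**Figure D1:**
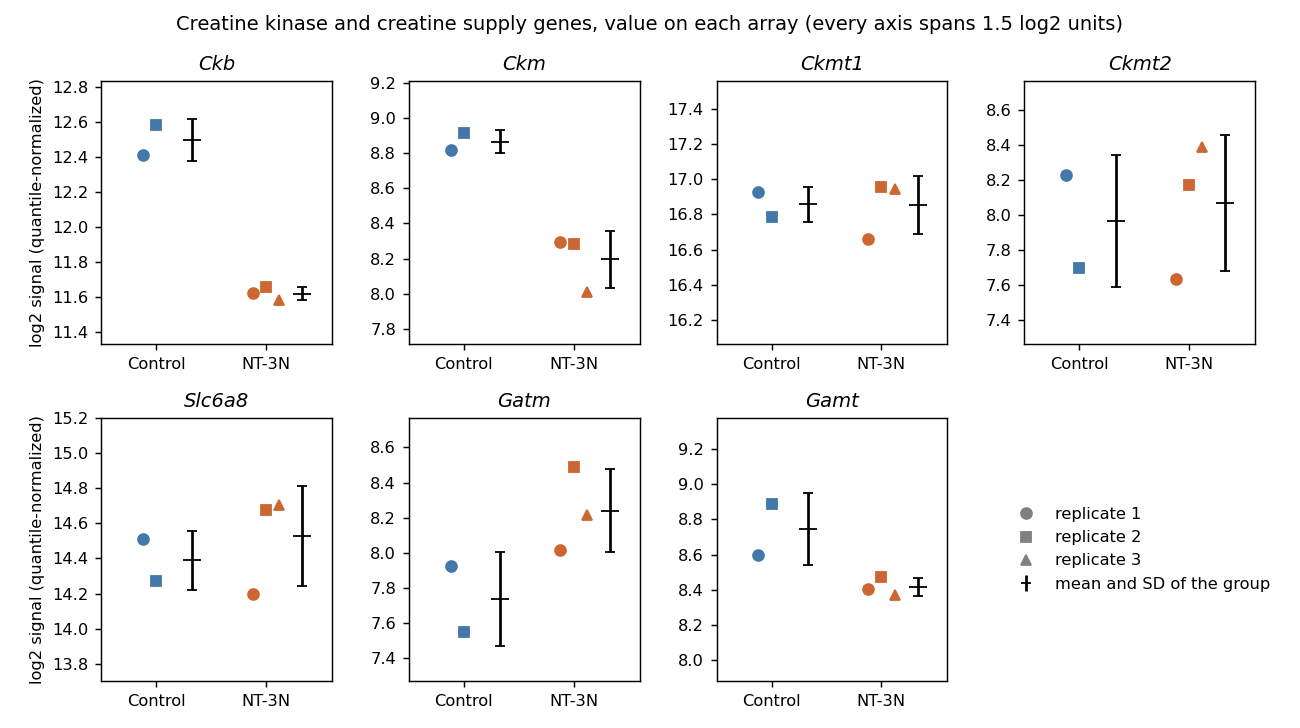
Quantile-normalized log2 processed signal of the brightest probe of each of the 7 members, by array, with 2 Control and 3 NT-3N mice; each point is 1 mouse, and the black bars give the mean and SD of the group. Ckb, Ckm and Gamt lie lower and Gatm higher in all NT-3N mice, while the groups of Ckmt1, Ckmt2 and Slc6a8 overlap.

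Ckm, the muscle-type cytosolic enzyme, was measured by 1 probe. It gave 8.82 and 8.91 in Control and 8.29, 8.28 and 8.01 in NT-3N. As for Ckb, both Control arrays lay above every NT-3N array. The means were 8.87 ± 0.067 (SD, n = 2) and 8.20 ± 0.16 (SD, n = 3). The difference of -0.67 had a standard error of 0.14 and a 95% interval from -0.998 to -0.34, a 1.59-fold lower signal. It did not pass the test over all features (limma, adjusted p = 0.21). Unscaled signals were 411 and 499 in Control and 276, 357 and 269 in NT-3N, again without overlap.

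The mitochondrial kinases did not separate the groups. Ckmt1, the ubiquitous form, gave 16.93 and 16.79 in Control and 16.66, 16.96 and 16.94 in NT-3N. The lowest and the highest of the 5 values were both NT-3N arrays. The difference, -0.0029, had a standard error of 0.11 and a 95% interval from -0.26 to 0.26 (limma, adjusted p = 0.99). Its second probe gave a difference of 0.027 with a standard error of 0.10. No Ckmt1 spot was saturated.

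Ckmt2, the sarcomeric mitochondrial form, was the most variable member within groups. It gave 8.23 and 7.70 in Control and 7.64, 8.17 and 8.39 in NT-3N. NT-3N replicate 1 was the lowest array, as for Ckmt1, and NT-3N replicate 3 the highest. The standard deviations were 0.38 and 0.39, and the difference, 0.10, had a standard error of 0.26 and a 95% interval from -0.54 to 0.74 (limma, adjusted p = 0.92).

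Slc6a8, the creatine transporter of the cell membrane, also overlapped between groups. Its brighter probe gave 14.51 and 14.27 in Control and 14.20, 14.68 and 14.70 in NT-3N. NT-3N replicate 1 was the lowest array and the other NT-3N arrays were the highest. The difference, 0.14, had a standard error of 0.17 and a 95% interval from -0.27 to 0.55 (limma, adjusted p = 0.82). The second probe gave 12.84 and 12.66 against 12.51, 12.98 and 13.04, in which replicate 1 was again lowest. Its difference was 0.093 with a standard error of 0.17.

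**Figure D2:**
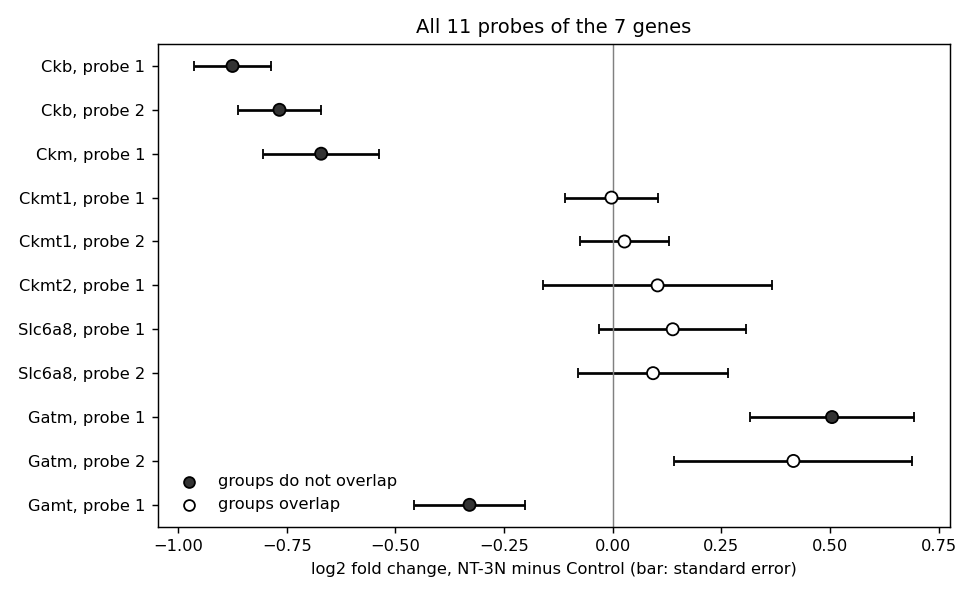
Difference in quantile-normalized log2 processed signal, NT-3N minus Control, for each of the 11 member probes with bars of 1 standard error (2 Control and 3 NT-3N mice); filled points mark probes whose groups do not overlap. Both Ckb probes, at -0.87 and -0.77, and the Ckm probe, at -0.67, lie farthest below 0, and the bars of both Ckmt1 and both Slc6a8 probes cross 0.

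The enzymes of creatine synthesis lay on opposite sides of 0, and neither passed the test. Gatm, which makes guanidinoacetate from arginine and glycine, gave 7.92 and 7.55 in Control and 8.02, 8.49 and 8.21 in NT-3N. All NT-3N arrays lay above both Control arrays, and NT-3N replicate 1 was the nearest to them. The means were 7.74 ± 0.27 (SD, n = 2) and 8.24 ± 0.24 (SD, n = 3). The difference, 0.50, had a standard error of 0.19 and a 95% interval from 0.044 to 0.96, a 1.42-fold higher signal (limma, adjusted p = 0.48). Unscaled signals were 222 and 192 in Control and 229, 415 and 312 in NT-3N, without overlap. The second Gatm probe, with 5.82 and 5.40 against 5.63, 6.39 and 6.05, had overlapping groups and a difference of 0.42.

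Gamt, which methylates guanidinoacetate to creatine, gave 8.60 and 8.89 in Control and 8.41, 8.47 and 8.37 in NT-3N. Both Control arrays lay above the NT-3N arrays. The difference, -0.33, had a standard error of 0.13 and a 95% interval from -0.64 to -0.014, a 1.26-fold lower signal (limma, adjusted p = 0.50). Without scaling the Gamt signals were 352 and 491 in Control and 299, 410 and 347 in NT-3N, and these groups overlapped.

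Of the 7 members, 0 were called higher and 1, Ckb, was called lower at an adjusted p under 0.05 in limma. Over all 32917 features, 0.125% were called higher and 0.0182% lower. At an unadjusted p under 0.05, 1 member was higher, Gatm, and 3 were lower, Ckb, Ckm and Gamt, beside 4.95% and 4.67% of all features. The same 1 and 3 members had groups that did not overlap, beside 13.5% and 14.8% of all features. Because the comparison chose the family, nothing is read from these counts. The median difference of the members was -0.0029, and that of all features -0.019. The call of Ckb was lost in 8 of 18 alternative settings, among them median scaling of the arrays and leaving out either Control mouse, which leaves 1 Control array whose spread is assumed equal to that of the NT-3N mice, while its difference stayed between -0.96 and -0.79.

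**Figure D3:**
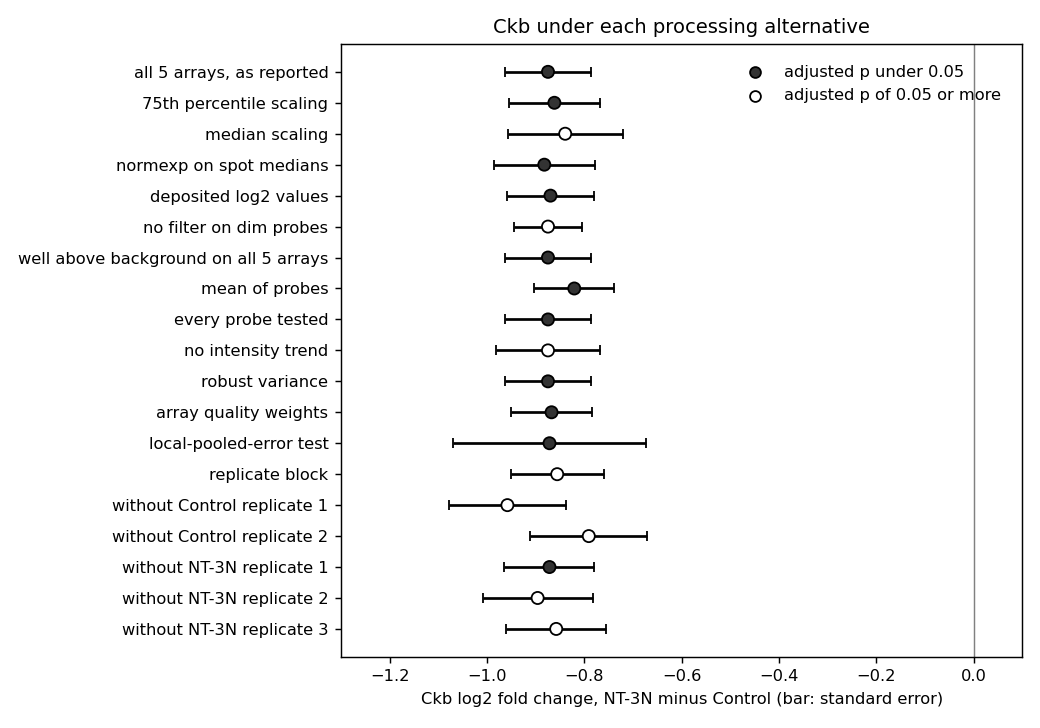
Difference of Ckb in log2 processed signal, NT-3N minus Control, as reported and with each of 18 alternative settings; filled points are past an adjusted p under 0.05 and bars give 1 standard error. All lie between -0.96 and -0.79.

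Markers of cell types that the colon wall holds were set beside Ckb and Ckm. All 12 smooth muscle markers were lower after NT-3N, with a median difference of -0.27 and a range from -0.88 to -0.11. None was called in limma, 5 had an unadjusted p under 0.05 (Smtn, Lmod1, Mylk, Myh11 and Tagln), and the groups of 8 did not overlap, beside 4.67% and 14.8% of all features in that direction. Their summed unlogged signal lay between 628140 and 653880 in Control and between 483230 and 587500 in NT-3N, without overlap. Most of these sums came from the brightest markers, Tagln, Myl9, Cnn1 and Acta2. The groups of Acta2 and Myl9 overlapped, and those of Tagln and Cnn1 did not. Smtn, a smooth muscle actin-binding protein, differed by -0.88 (limma, adjusted p = 0.062) and Lmod1, an actin nucleator of muscle, by -0.84 (limma, adjusted p = 0.22). Acta2, smooth muscle actin, differed by -0.24 and Myh11, smooth muscle myosin, by -0.22. Each of the 12 was well above background in every mouse. The part of smooth muscle in the lower Ckb and Ckm was not tested.

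Skeletal muscle markers lay on both sides of 0. Of the 18 skeletal muscle markers 14 were tested, 5 higher and 9 lower, with a median of -0.080 and summed signals of 12324 to 18761 in Control and 13587 to 21935 in NT-3N. These sums overlapped. Most of each sum came from Eno3, at 13.78 and 12.96 in Control and 13.31, 14.06 and 14.01 in NT-3N. Myh1, Myh4, Myoz1 and Mb did not enter the test. All 7 heart muscle markers were tested, 1 higher and 6 lower, with a median of -0.27 and sums of 16381 to 17402 in Control and 10726 to 14988 in NT-3N, without overlap. Most of these sums came from Actc1, an actin found in heart and smooth muscle. Without Actc1, an alternative chosen after seeing the data, the other 6 markers summed to 1346 and 1982 in Control and 1336, 1894 and 1480 in NT-3N, which overlap. Tnni3, a troponin of heart muscle, was the 1 higher marker, by 1.04 without overlap (limma, adjusted p = 0.17). The 14 epithelial markers were divided into 6 higher and 8 lower, with a median of -0.027. Their sums, 1476300 to 1533600 in Control and 1415500 to 1542100 in NT-3N, overlapped. Of 12 markers of enteric neurons and glia, 9 were lower and 3 higher, of which Gfap, the glial filament protein, was called higher by 1.84 (limma, adjusted p = 0.012). Gfap was picked out after its value was seen. Of 6 B cell markers 5 were higher, with a median of 0.95, and Ms4a1, the B cell antigen CD20, differed by 3.65 without overlap (limma, adjusted p = 0.059). Of 8 fibroblast markers 5 were higher, with a median of 0.047, and Pdpn, podoplanin, differed by 1.49 without overlap (limma, adjusted p = 0.067). The 3 markers of interstitial cells of Cajal, 1 higher and 2 lower, had a median of -0.39. The 6 of fat cells, 2 higher and 4 lower, had a median of -0.27. Their summed signals were 22779 and 7807 in the 2 Control mice. The summed signals of these last 4 lists overlapped between the groups. Ms4a1 and Pdpn were also picked out after their values were seen, and the part of these cell types in the members' values was not tested.

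**Figure D4:**
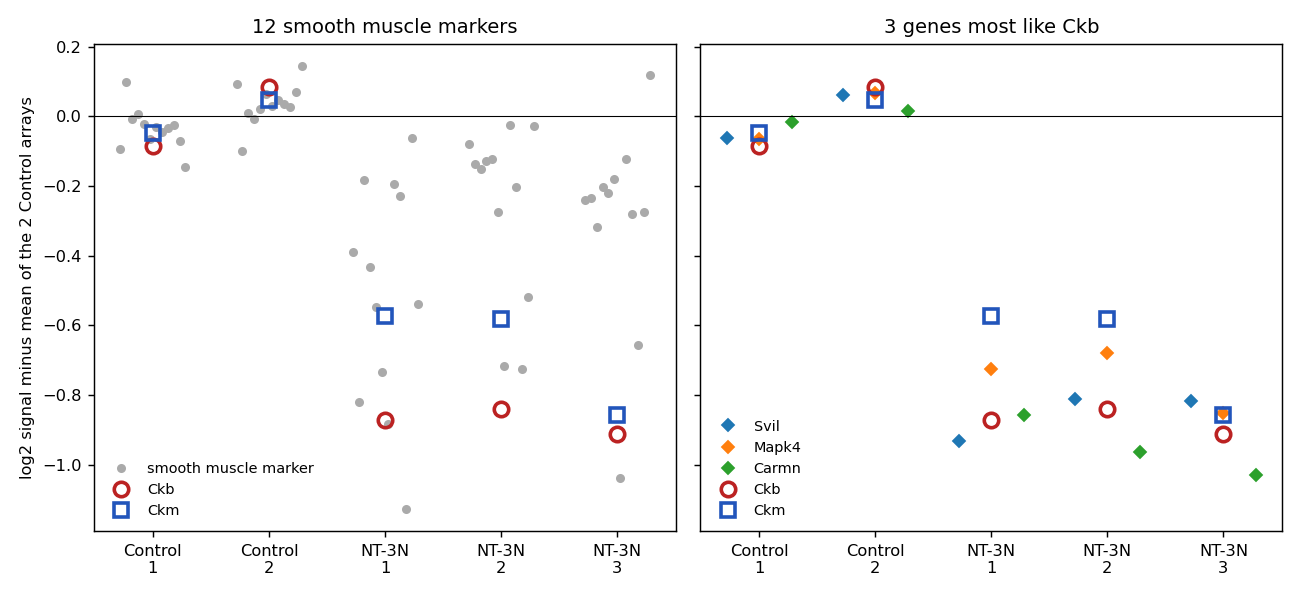
Log2 processed signal minus the mean of the 2 Control arrays, for Ckb and Ckm beside 12 smooth muscle markers (left) and the 3 genes most like Ckb (right), by array; points spread sideways within an array are different genes. Ckb lies below most smooth muscle markers on the NT-3N arrays, and among the 3 most alike genes.

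The genes whose pattern was most like that of Ckb were found among 16737 features with a symbol, as those with the smallest root-mean-square difference between mean-centred log2 signals over the 5 arrays. Svil, a membrane-bound actin-binding protein, was nearest at 0.053. Its signal was 12.06 and 12.18 in Control and 11.19, 11.31 and 11.30 in NT-3N. Mapk4, an atypical MAP kinase, followed at 0.070, then Carmn, a long noncoding RNA of smooth muscle, at 0.075. Carmn measured 13.63 and 13.66 in Control and 12.79, 12.68 and 12.61 in NT-3N. Ccdc106 stood at 0.081. Svil differed by -0.85 (limma, adjusted p = 0.047) and Carmn by -0.95 (limma, adjusted p = 0.024), and both were called lower. Mapk4 differed by -0.75 (limma, adjusted p = 0.27) and Ccdc106 by -0.74 (limma, adjusted p = 0.19), and neither was called. These genes were picked for likeness to Ckb, so their directions are fixed by the choice and their calls are no independent support.

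The wider pathway was described over 96 listed genes, of which 87 were tested. Of these, 44 were higher and 43 lower, with a median difference of 0.00046 beside -0.019 for all features. None was called in limma, and 5 higher and 5 lower had an unadjusted p under 0.05. The higher ones were Ak7, Nnmt, Shmt1, Ak4 and Slc7a1, and the lower ones Myocd, Atp2b4, Ak1, Slc6a9 and Mat2a. Shmt1, the cytosolic enzyme that interconverts serine and glycine, differed by 0.61 (limma, adjusted p = 0.18), and Slc7a1, a carrier of arginine, by 0.41 (limma, adjusted p = 0.21). Ak1, the cytosolic adenylate kinase of muscle, differed by -0.55 (limma, adjusted p = 0.33), and Mat2a, which makes S-adenosylmethionine, by -0.30 (limma, adjusted p = 0.26). These 4 and the other genes at an unadjusted p under 0.05 that were below 2-fold and not the largest of their list were picked out after their values were seen. Groups did not overlap for 14 higher and 11 lower genes. Over all features 4.95% were higher and 4.67% lower at that unadjusted p, and 13.5% were higher and 14.8% lower without overlap, so the pathway counts lay near the background. The 9 genes that were not tested were Ak9, Slc25a31, Slc7a2, Mat1a, Slc22a2, Atp4a, Myog, Myf5 and Myf6. The median differences of the lists were 0.081 for phosphotransfer enzymes and mitochondrial exchangers, 0.056 for arginine and glycine supply, -0.051 for the methyl donor cycle, -0.15 for other carriers, -0.0055 for ATP-driven pumps and -0.031 for regulators.

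Of each list 1 gene is given. In phosphotransfer this was Ak7, an adenylate kinase, which measured 4.74 and 4.21 in Control and 5.28, 5.41 and 5.16 in NT-3N, a difference of 0.81 (limma, adjusted p = 0.41). Its groups did not overlap, but its difference was 0.23 with normexp background correction. In arginine supply it was Arg2, the mitochondrial arginase, with a difference of -0.97 (limma, adjusted p = 0.59), from 8.07 and 9.12 in Control and 8.51, 7.10 and 7.27 in NT-3N. The Arg2 groups overlapped, with Control replicate 2 the highest array, and its difference was -0.44 without that array. With Control replicate 1 left out the Arg2 difference was -1.50, and with NT-3N replicate 1 left out -1.42.

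In the methyl donor cycle it was Nnmt, which methylates nicotinamide and so uses the same donor as Gamt. It measured 8.89 and 8.38 in Control and 9.18, 9.70 and 9.37 in NT-3N, a difference of 0.78 without overlap (limma, adjusted p = 0.34). With the mean of its probes in place of the brightest, the Nnmt difference was 0.57. Among other carriers it was Slc16a12, a monocarboxylate-type carrier of creatine, at 6.87 and 6.63 against 6.86, 7.88 and 7.48. NT-3N replicate 1 lay between the Control arrays, and the difference was 0.66 (limma, adjusted p = 0.56).

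Among the pumps it was Atp2b4, a calcium pump of the cell membrane, with 8.16 and 7.92 in Control and 7.40, 7.49 and 7.47 in NT-3N. The difference was -0.59, without overlap (limma, adjusted p = 0.25). Among regulators it was Myocd, the coactivator of smooth muscle genes, with 8.35 and 8.30 against 7.21, 7.61 and 7.48. Its difference of -0.89 had a standard error of 0.15 and did not pass the test (limma, adjusted p = 0.15). Srf, the factor with which myocardin acts, differed by -0.15, from 11.31 and 11.32 in Control to 11.07, 11.22 and 11.20 in NT-3N, without overlap (limma, adjusted p = 0.64); it was picked out beside Myocd and not by the rule for naming genes.

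**Figure D5:**
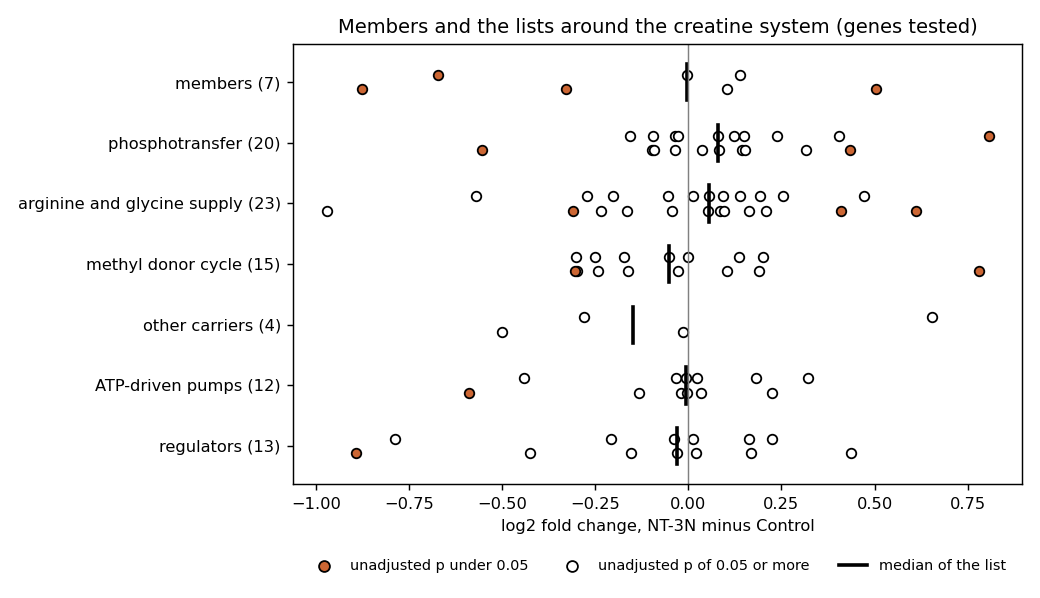
Difference in log2 processed signal, NT-3N minus Control, for the 87 tested pathway genes by list and for the 7 members; each point is 1 gene, filled where its unadjusted p was under 0.05, and lines mark the medians. The lists spread to both sides of 0, from -0.97 for Arg2 to 0.81 for Ak7.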

How the data were processed

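Per the file headers, the authors extracted spot values with Agilent Feature Extraction 11.0.1.1, and the deposited scanner files give an intensity per spot that is background-subtracted and not scaled between arrays. The authors also deposited log2 values for 37380 probes, which correlated at 0.99998 or more with the quantile-normalized values computed here and were used as an alternative. The 5 arrays shared 1 slide and 1 scan time.

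Control spots and outlier spots, 69 to 184 of 59305 per array, were left out. The processed signal was log2-transformed, averaged per probe and quantile-normalized. Probes well above background on at least 2 arrays were kept. Accessions were named through a RefSeq table of GRCm38.p6, which named 32994 of 56605 probes, and a gene was represented by its brightest probe. The comparison of NT-3N with Control was fitted in R 4.3.3 by limma 3.58.1, with a variance trend over intensity. The test was two-sided, with Benjamini-Hochberg adjustment across all features. The tests were also run on simulated data whose spread was drawn from limma's own fitted variance model. Such data meet limma's assumptions by construction, so nothing is concluded from them about the real arrays. An exact permutation test of 2 against 3 mice cannot go below p = 0.1. Precision is limited by the small number of arrays. The limma p-values and standard errors rest on the spread between these mice, moderated by the spread of other features of like intensity.

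The members, the pathway lists and the cell type markers were chosen with earlier results of these data known. Genes were named by a rule: all members, the 5 genes most like Ckb (1 of them is not reported here), and of each pathway list the called genes, those with an unadjusted p under 0.05 and at least 2-fold, or otherwise the gene with the largest difference that was well above background on all arrays. Alternatives covered scaling, background, filter, probes per gene, variance model, array weights, the local-pooled-error test named by the study, the replicate number and leaving out each array.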

Additional observations from a re-analysis of the deposited data

How the results depend on the processing

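Over 18 alternatives Ckb, Ckm, Slc6a8, Gatm and Gamt kept their direction, and Ckb was called lower in 10. The members called lower numbered 0 with median scaling, with no filter on dim probes, with no intensity trend and with the replicate block, and 0 to 1 when each array was left out: the call was lost without Control replicate 1, Control replicate 2, NT-3N replicate 2 or NT-3N replicate 3. With 1 Control array left, its spread is taken from the NT-3N mice. The cause was not tested. Without Control replicate 2, Gatm moved from 0.50 to 0.32, Gamt from -0.33 to -0.18 and Slc6a8 from 0.14 to 0.016. Slc6a8 lay at 0.26 without Control replicate 1, and at 0.30, 0.063 and 0.049 without NT-3N replicates 1, 2 and 3. Ckmt1, near 0, turned to 0.0045 with median scaling, 0.0010 with the deposited log2 values, 0.012 with the mean of probes, 0.062 with array quality weights and 0.086 with the local-pooled-error test, and lay between -0.073 and 0.091 when an array was left out. Ckmt2 turned to -0.058 with the replicate block and lay between -0.16 and 0.37 when an array was left out. Whether the replicate numbers pair the mice could not be decided. The deviations of same-numbered arrays correlated at 0.13 and 0.036 across features. Deviations of the 2 Control arrays mirror each other, so these correlations are not independent. With the replicate block 0 features were called, with 2488 at an unadjusted p under 0.05. In that fit NT-3N replicate 3 has no Control of its number, so few arrays carry the comparison. Called features in all numbered 41 higher and 6 lower as reported, 2 and 0 with no filter on dim probes or with no intensity trend, 128 and 49 with array quality weights, 188 and 154 with the local-pooled-error test, and 0 and 0 without NT-3N replicate 3. A slide or scan block was not run, since all arrays share both.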
